A study of Mus musculus with 15 samples.

Results

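The genes described here are 46 genes of the primary cilium, listed by name for their part in ciliary transport, membrane entry, the transition zone, the basal body or the EvC zone. Of the 46, 44 had a row in the gene count table, out of 21889 genes, and Ift27 and Ift122 were not analysed here. The values come from poly(A) RNA-seq of mouse cerebellar cells in 5 groups of 3 libraries. Granule neuron precursors were taken in the embryo at E15.5 (genotype Math1-GFP, a reporter of the granule lineage gene Math1, also called Atoh1) and at postnatal days 1, 7 and 14 (P1, P7 and P14, wild type). Medulloblastoma cells (MB) came from Ptch1 heterozygous mice whose age the labels do not give. By the labels' protocols, cells of all groups were purified on Percoll, a density gradient that selects by no marker. Age and genotype cannot be told apart between E15.5 and P1, and tumour and genotype cannot be told apart between MB and the precursors. Nothing in the labels says whether the libraries of a group came from separate animals or tumours, so p-values measure only the spread between these libraries, which may be technical.

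The primary cilium is a single antenna of microtubules that grows from the basal body. Kinesin-2 motors carry cargo outward on trains of the intraflagellar transport complex B (IFT-B), dynein-2 and IFT-A bring the trains back, the BBSome moves membrane proteins, and the transition zone gates the base. Vertebrate cells need the cilium to read Sonic hedgehog, the signal from Purkinje cells that makes granule neuron precursors divide. Ptch1 is the hedgehog receptor that keeps Smo, the signal transducer, out of the cilium, and Smo must enter the cilium to signal.

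Many ciliary genes carry an X-box in their promoter, a palindrome bound by RFX factors. The search used GTTNCC, then 0 to 3 bases of any kind, then GGNAAC, in RefSeq windows of GRCm38.p6 that run from 250 bases before to 50 after a start site. The motif reads the same on both strands and no other motif was searched. Windows were found for 42 of the 46 genes. An exact match lay in 5 of the 42 (11.9%), against 253 of 27025 genes with a window (0.936%). With up to 1 changed letter the counts were 12 of 42 (28.6%) and 6.15% of all genes, and with up to 2 they were 25 of 42 (59.5%) and 37.7%. A match is a description of the letters in a window, not a site. The 5 exact matches are shown because they join members of the BBSome, IFT-B and the transition zone, with the motif in capitals and up to 40 bases on each side, cut at the start site for Mks1 and close to the motif for Tctn1.
Bbs7: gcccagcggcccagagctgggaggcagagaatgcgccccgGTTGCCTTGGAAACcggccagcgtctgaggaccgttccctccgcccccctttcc
Ift57: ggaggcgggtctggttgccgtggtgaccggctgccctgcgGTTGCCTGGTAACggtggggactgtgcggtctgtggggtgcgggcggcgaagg
Mks1: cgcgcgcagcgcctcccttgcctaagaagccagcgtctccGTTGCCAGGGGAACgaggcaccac
Tctn1: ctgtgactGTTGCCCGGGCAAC
Tctn3: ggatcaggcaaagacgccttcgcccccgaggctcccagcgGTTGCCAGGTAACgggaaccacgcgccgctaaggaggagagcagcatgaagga
The windows are chr3:36613340-36613639 on the minus strand for Bbs7, chr16:49699044-49699343 on the plus strand for Ift57, chr11:87852965-87853264 on the plus strand for Mks1, chr5:122264411-122264710 on the minus strand for Tctn1 and chr19:40612182-40612481 on the minus strand for Tctn3. The motif starts at position -121 from the start site in Bbs7, -60 in Ift57, -24 in Mks1, 36 in Tctn1 and -140 in Tctn3. These 5 genes did not share one expression pattern: Tctn1 and Tctn3 were called in no comparison, Mks1 was called higher in MB, Ift57 was called lower in MB than at P7, and Bbs7 was high in 1 tumour library.

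Libraries held between 12597472 (E15.5 replicate 2) and 43443132 (E15.5 replicate 3) counts in genes. The 8 markers of granule precursors and granule neurons summed to between 2391 and 5630 CPM (reads of the gene, scaled to library size) in every library, but did not move together. Atoh1, the factor of dividing precursors, was at 124 to 138 CPM at E15.5, 24.5 to 65.4 at P1, 23.6 to 39.1 at P7, 10.9 to 13.1 at P14 and 236 to 322 in MB. Gabra6, a receptor subunit of mature granule neurons, had no read at E15.5 and was at 161 to 202 CPM at P14. Pax6 and Neurod1, markers of the lineage, were lower in MB (118 to 294 CPM and 295 to 573 CPM) than at P7 (491 to 858 CPM and 1146 to 1868 CPM). Markers of other cells were present in every group and peaked in different ones. Oligodendrocyte (5176 to 5681 CPM), endothelial (641 to 672 CPM) and pericyte or fibroblast markers (769 to 894 CPM) were highest at P14. GABAergic interneuron markers were highest at E15.5 (396 to 499.7 CPM) and Purkinje markers in 1 P7 library (703 CPM). Microglia and macrophage markers were highest in MB (126 to 367 CPM), and choroid plexus markers in P1 replicate 2 (10545 CPM) and at P14 (5214 to 8622 CPM). The part of these cells in the results below was not tested. In bulk RNA, fewer cells of a type and less RNA per cell cannot be told apart. Tsnax had a gene count of at most 0.273% of its transcript count in E15.5 replicates 1 and 3, P7 and MB replicate 1. In the other 9 libraries it was 92.4% or more. From this 1 gene, these 2 counting sets appear to have been counted with different gene models. P7 therefore differs from P1 and from P14 in this respect as well as in age, and these cannot be told apart. For all 44 genes, the ratio of gene counts to transcript counts overlapped between the 2 sets of libraries.

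All 44 genes passed the filter on low counts. Per kilobase of transcript, mean levels over the 15 libraries ran from 0.431 CPM for Kif17 to 98.0 CPM for Arl3, the small GTPase that unloads lipid-modified proteins in the cilium. Kif3a, a kinesin-2 motor subunit, came next at 62.4 CPM per kilobase. The highest group mean was in MB for 22 genes, at E15.5 for 12, at P7 for 6, at P1 for 4 and at P14 for none. P14 had the lowest mean of the 4 ages for 21 of the 44 genes. Group means differed by over 2 times for 16 genes and by under 1.5 times for 13. None of these counts was made over all genes, so they describe the members only. Summed over the 44 genes, the level was 1502 to 1532 CPM in the P14 libraries, below each of the other 12 libraries (the lowest was P1 replicate 3 at 1660), and 1927 to 2273 CPM in MB. The map of all members by library shows both the low P14 columns and the spread among tumours.

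**Figure D1:**
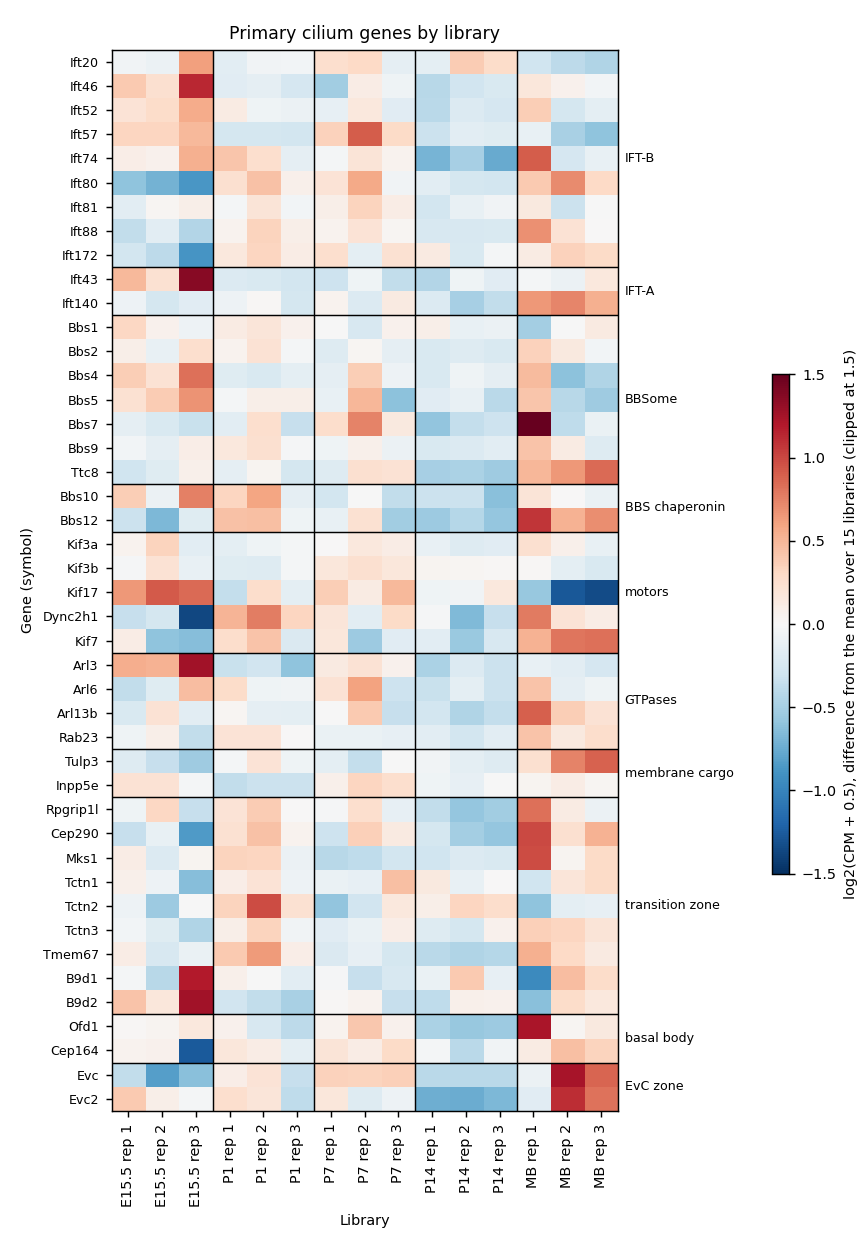
Level of each of 44 primary cilium genes (rows, by role) in each of 15 libraries (columns), as the difference of log2(CPM + 0.5) from the gene's mean over all libraries, with colours clipped at 1.5. E15.5 replicate 3 and MB replicate 1 stand apart from their own groups in many rows, and P14 is below the mean in most.

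A test across the 4 ages (edgeR quasi-likelihood F-test, Benjamini-Hochberg adjusted p, here FDR, under 0.05) called 18 of the 44 genes (40.9%), against 55.7% of all genes tested. By role, it called 6 of 9 IFT-B genes, 1 of 2 IFT-A genes, 1 of 7 BBSome genes, both chaperonin-like genes that help to assemble the BBSome (Bbs10 and Bbs12), 1 of 5 motors, 1 of 4 GTPases, 1 of 2 membrane cargo genes, 4 of 9 transition zone genes, neither basal body gene, and Evc but not Evc2. The share of members called was thus below that of all genes. DESeq2 and a fit of the 4 ages alone each called 26 of the 44 members, against 64.5% and 65% of all genes. Leaving out 1 library gave between 10 and 18 called genes, the fewest without P1 replicate 1 or P1 replicate 2, where 49.5% and 47.4% of all genes were called.

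Between E15.5 and P1, members were called in both directions, each at a lower share than over all genes. Of the 44 genes, 15 were called (34.1%, against 46.3% of all genes tested): 7 rose (15.9%, against 25.4%) and 8 fell (18.2%, against 20.9%), and the median log2 change was 0.03, as over all genes (0.03). In IFT-B, Ift80, Ift172 and Ift88 rose while Ift46 and Ift57 fell. The other genes that rose were Dync2h1, Bbs12, Tctn2 and Cep290, and the others that fell were Arl3, Kif17, B9d2, Ift43, Bbs4 and Inpp5e. All P1 libraries lay above all E15.5 libraries in 9 members (30.5% of all genes) and below them in 10 (27.3%). Among calls not described further, that of Bbs4 was lost without any 1 P1 library or E15.5 replicate 1 or 3 (FDR up to 0.206 over the alternatives), that of Cep290 without E15.5 replicate 1 or 3 or P1 replicate 1 or 2 (up to 0.365), and that of Bbs12 without E15.5 replicate 1 or 2 or P1 replicate 1 or 2 (up to 0.108). The Cep290 call was also lost with a correction for length. The calls of Ift46, Ift43 and Ift172 were lost only with E15.5 replicate 2 as the lone E15.5 library. That of Inpp5e was lost without TMM scaling and with E15.5 and P1 fitted alone (FDR up to 0.168). Markers of other cells moved much further in the same comparison. All 6 astroglial, 5 endothelial, 5 pericyte or fibroblast and 5 oligodendrocyte markers were called higher at P1, with median log2 changes of 4.03, 4.65, 5.54 and 4.62, and all 5 GABAergic markers were called lower (median -1.21). Their part in the changes of cilium genes was not tested.

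Dync2h1, the heavy chain of the dynein-2 return motor, was at 66.7, 71.0 and 32.7 CPM in the E15.5 libraries and at 122, 145 and 106 CPM at P1. Every P1 library was above every E15.5 library, and the level rose 2.20-fold (log2 change 1.14, SE 0.28, FDR 0.00388). Ift80, an IFT-B subunit, was at 30.4, 28.4 and 25.3 CPM at E15.5 and 55.1, 63.3 and 49.1 CPM at P1. It rose 1.99-fold (log2 change 0.99, SE 0.19, FDR 0.000557), with the 2 groups far apart. Tctn2, a transition zone membrane protein, was at 14.9, 10.6 and 15.6 CPM at E15.5 and 20.0, 31.4 and 18.5 CPM at P1, a rise of 0.76 (log2, SE 0.26, FDR 0.0290) in which P1 replicate 2 was highest. Its FDR reached 0.177 over the alternatives, and the call was lost without P1 replicate 2 and without E15.5 replicate 1 or 2. Ift88, the IFT-B subunit whose loss removes the cilium, was at 20.7, 24.1 and 19.7 CPM at E15.5 and 27.9, 33.9 and 28.6 CPM at P1. The log2 change of Ift88 was 0.49 (SE 0.19, FDR 0.0452), and the call was lost without any 1 of the P1 libraries or of E15.5 replicates 1 and 3 (FDR up to 0.245 over the alternatives).

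Arl3 was at 111, 109 and 182 CPM at E15.5 and at 60.2, 62.3 and 49.9 CPM at P1. It fell 2.34-fold (log2 change -1.22, SE 0.19, FDR 0.000134), and all P1 libraries lay below all E15.5 libraries. Kif17, an accessory kinesin-2 that moves some ciliary receptors, was low at both ages, with 49, 32 and 96 reads or 2.14, 2.67 and 2.52 CPM at E15.5 and 0.815, 1.51 and 1.02 CPM at P1. Its fall of 2.18-fold (log2 change -1.12, SE 0.41, FDR 0.0340) was lost without E15.5 replicate 2 or 3 or P1 replicate 1 or 3 (FDR up to 0.115 over the alternatives). B9d2, a transition zone protein, was at 26.4, 22 and 47.6 CPM at E15.5 and at 15.9, 15 and 13.8 CPM at P1, a log2 change of -1.10 (SE 0.30, FDR 0.00685). The E15.5 value of B9d2 was highest in replicate 3, as were those of Arl3, Ift43 and Ift46.

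Levels in E15.5 replicate 3 varied with transcript length. Over the 44 genes, its deviation from each gene's mean over all 15 libraries had a Spearman correlation of -0.67 with length, as a description of 1 library. The correlation was also negative in E15.5 replicates 1 (-0.30) and 2 (-0.14), and positive in the P1 libraries (0.28, 0.33 and 0.30). The 5 genes shorter than 1100 bases had a median of 2.40 times their mean level in E15.5 replicate 3, and the 8 longer than 5000 bases had 0.662 times theirs. P14 replicate 2 leaned the same way (-0.53). The P1 against E15.5 change had a Spearman correlation of 0.48 with length over the members, and of 0.16 over 14494 genes. Genes called higher had a median length of 4063 bases and genes called lower one of 2572 bases. Without E15.5 replicate 3, 5 members were called higher and 6 lower (20.8% and 18.3% of all genes), and Dync2h1 kept its direction at 0.81 (FDR 0.0166), Arl3 at -0.98 (FDR 0.000203) and B9d2 at -0.75 (FDR 0.0418). Within the set of libraries counted alike, which leaves E15.5 replicate 2 alone against P1, 4 members were called higher and 3 lower (16% and 12.3% of all genes), among them Ift80 (0.98, FDR 0.0174) and Arl3 (-0.92, FDR 0.0105). Dync2h1 and B9d2 were not called there (0.69, FDR 0.111, and -0.56, FDR 0.193).

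**Figure D2:**
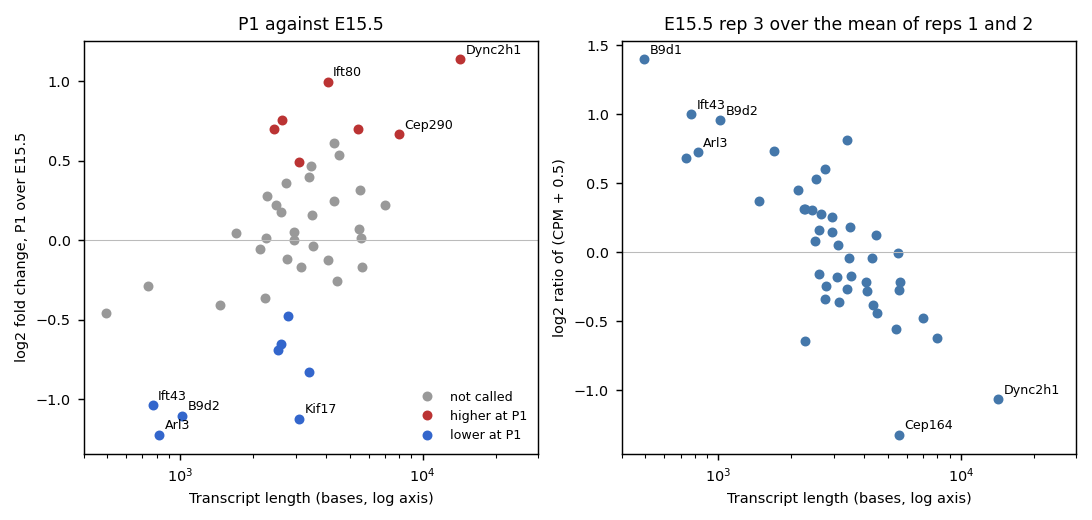
Left, log2 fold change of each of 44 genes from E15.5 to P1 against transcript length on a log axis, coloured by call. Right, log2 ratio of E15.5 replicate 3 to the mean of replicates 1 and 2 for the same genes. Short genes such as B9d1 and Ift43 lie high and long genes such as Dync2h1 and Cep164 lie low in replicate 3.

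From P1 to P7, few genes changed: 3.15% of all genes were called. Of the 44 cilium genes 2 were called, both higher (4.55%, against 1.4% of all genes), and none was called lower (1.74% of all genes), with 7 genes at an unadjusted p under 0.05. DESeq2 called 2 lower (4.64% of the genes it tested). Ift57, an IFT-B subunit that binds the kinesin-2 motor, was at 37.7, 37.8 and 37.4 CPM at P1 and at 57.8, 85.4 and 55.3 CPM at P7. This was 1.76-fold higher (log2 change 0.81, SE 0.19, FDR 0.0319), with P7 replicate 2 above the rest. Inpp5e, the phosphatase that keeps the lipid makeup of the ciliary membrane, was at 33.9, 35.1 and 35.0 CPM at P1 and 46.2, 55.0 and 52.4 CPM at P7, a log2 change of 0.56 (SE 0.14, FDR 0.0437). The Ift57 call was lost without P1 replicate 1 or 2 or P7 replicate 1 or 2 (FDR up to 0.155). In those fits 0.00646% to 0.375% of all genes were called higher. The Inpp5e call was lost without any 1 of the 6 libraries (FDR up to 0.189). Without P1 replicate 3 and without P7 replicate 3, 3.12% and 0.4% of all genes were called higher.

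Ift57 moved at each step. It stood at 57.0, 56.9 and 63.8 CPM at E15.5, fell to P1 (log2 change -0.65, SE 0.19, FDR 0.00988), was higher at P7, and was back at 36.2, 40.5 and 40.1 CPM at P14. The fall from P7 to P14 was 1.70-fold (log2 change -0.76, SE 0.19, FDR 0.0222). Its call was lost without P7 replicate 2 or any 1 of the P14 libraries (FDR up to 0.116). In those fits 0.233% to 1.13% of all genes were called lower, against 4.51% with all libraries. With only E15.5 replicate 2 (56.9 CPM), which was in the same counting set as P1 and P14, the change from E15.5 to P1 was -0.59 and was not called.

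At P14 the levels of most members lay somewhat lower, with few calls for single genes. From P7 to P14, 36 of the 44 log2 changes were negative with a median of -0.25, against -0.005 over all genes, and 22 genes had all P14 libraries below all P7 libraries (21.4% of all genes did) while none had them all above (24.9% of all genes). Ift57 and Ttc8 were the only members called (10.3% of all genes were called), both lower (4.55%, against 4.51% of all genes), and none was called higher (5.81%), with 12 members at an unadjusted p under 0.05. DESeq2 also called none higher. Ttc8, the BBSome subunit also known as Bbs8, was at 28.2, 38.2 and 37.7 CPM at P7 and at 22.6, 23.1 and 22.1 CPM at P14. Its log2 change was -0.62 (SE 0.18, FDR 0.0388). The call was lost without P7 replicate 2 or 3 or any 1 of the P14 libraries (FDR up to 0.145). In those fits 0.233% to 3.09% of all genes were called lower. Fitted with P7 and P14 alone, 9 of the 44 members were called lower, against 10.7% of all genes.

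P14 against P1 compares libraries of the same counting set, and there 34 of the 44 changes were negative with a median of -0.28, against 0.005 over all genes. In 22 genes all P14 libraries were below all P1 libraries (24.9% of all genes), and in 2 they were all above (26.5%). Bbs12 was at 15.6, 15.8 and 10.9 CPM at P1 and at 7.65, 8.32 and 7.42 CPM at P14 (log2 change -0.85, SE 0.25, FDR 0.0471). Tmem67, a transition zone receptor-like membrane protein also called meckelin, was at 25.0, 29.7 and 20.3 CPM at P1 and at 14.3, 13.8 and 14 CPM at P14 (log2 change -0.83, SE 0.19, FDR 0.0183). These 2 were the only members called (8.94% of all genes were called), both lower (4.55%, against 5.31% of all genes). None was called higher with edgeR (3.63% of all genes) or DESeq2, and 12 had an unadjusted p under 0.05. Leaving out P1 replicate 1 or 2, or any P14 library, ended both calls. In those fits only 0.939% to 1.6% of all genes were called lower, so the losses were not particular to these 2 genes. Leaving out P1 replicate 3, the library with 3261 CPM of oligodendrocyte markers, gave 6 members lower (7.96% of all genes). A fit of only the libraries counted alike gave 8 lower (9.17% of all genes), DESeq2 gave 7 (7.96%), and P1 and P14 alone gave 12 (14.6%). The median change of the members was negative in each of these fits, from -0.34 without P1 replicate 3 to -0.21 without P1 replicate 2.

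Summed over 5 markers of dividing cells, the level was 2576 to 3811 CPM at P7, 1829 to 2796 CPM at P1 and 1105 to 1364 CPM at P14. At E15.5 it was 1493, 1654 and 1139 CPM in replicates 1 to 3. Only replicate 3, whose levels varied with transcript length, lay within the P14 range, and the others lay above it. The cilium genes summed to 1798 to 1941 CPM at E15.5. The relation between the 2 sums was not tested. Compared with P7, markers of dividing cells had a median log2 change of -1.08 at P14 (4 of 5 called lower) and GABAergic markers one of -0.77 (2 of 5 called lower). It was -1.05 for Purkinje markers (none of 5 called), 2.98 for oligodendrocyte markers (2 of 5 called higher) and 2.70 for choroid plexus markers (1 of 7 called higher). The part of these cells in the lower levels of cilium genes was not tested.

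**Figure D3:**
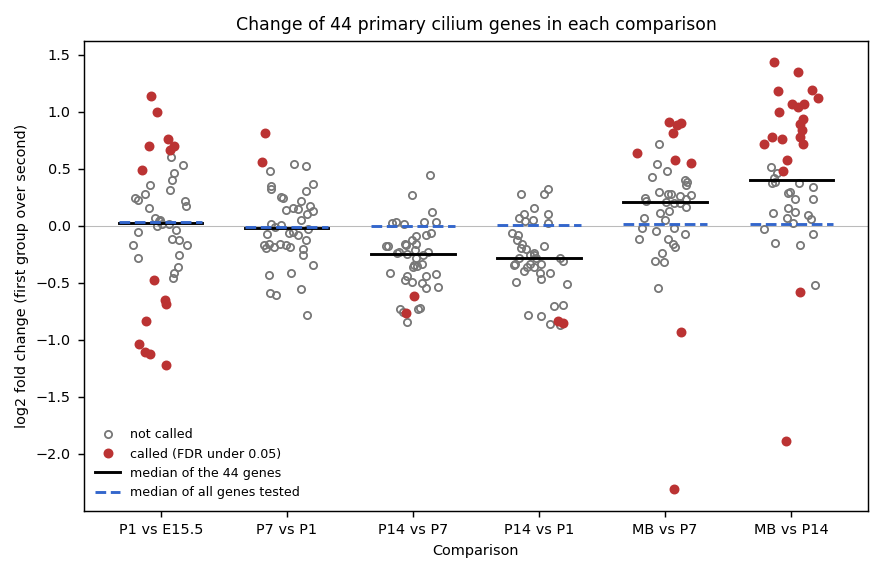
Log2 fold change of each of 44 primary cilium genes in 6 comparisons, with called genes (FDR under 0.05) filled, the median of the 44 genes as a black line and the median of all genes tested as a dashed line. The 2 comparisons with P14 as the first group lie mostly below 0, and MB against P14 lies mostly above it.

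In MB, some members were called higher than at both P7 and P14, and Kif17 was called lower than at both. Against P7, 9 of the 44 genes were called (20.5%, against 34.5% of all genes tested). Of these, 7 were higher (15.9%, close to the 13.7% of all genes) and 2 were lower (4.55%, against 20.7%), with a median log2 change of 0.21 against 0.02 over all genes. Against P14, 21 were called (47.7%, against 50%), of which 19 were higher (43.2%, against 22.9%) and 2 were lower (4.55%, against 27.2%), with a median of 0.40 against 0.01. The 2 comparisons share the tumour libraries. The 7 genes called higher in both were Bbs12, Kif7, Mks1, Tulp3, Ift140, Ttc8 and Tmem67. The share of all genes called higher in both was not computed. The P7 call of Tmem67 was lost without any 1 P7 library or MB replicate 1 or 2 (FDR up to 0.0941). MB libraries lay above all P7 libraries in 9 members (17.7% of all genes) and below them in 5 (23.9%), and above all P14 libraries in 26 (28.7%) and below in 4 (32.7%). The 2 reference ages thus gave different counts, for the members and for all genes. P14 was the age with the lowest mean for 21 members, a count not made over all genes. Markers of dividing cells summed to 3278 to 4898 CPM in MB. Markers of several other cells were far lower in MB than at P7, and all 5 Purkinje (median log2 change -6.48), 5 GABAergic (-7.66), 5 endothelial (-3.61) and 5 pericyte or fibroblast markers (-4.71) were called lower. Purkinje markers summed to 284 to 703 CPM at P7 and to 5.68 to 9.72 CPM in MB. Microglia and macrophage markers were higher in MB, with 4 of 6 called (median 2.25). The part of these cells in the tumour results was not tested.

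Among the genes of return transport and membrane entry, Ift140 and Tulp3 were higher in MB. Ift140, an IFT-A subunit that also helps receptors into the cilium, was at 75.5, 63.2 and 80.0 CPM at P7, 62.9, 51.2 and 56.3 CPM at P14, and 114, 121 and 106 CPM in MB. All 3 tumours were above all 12 precursor libraries, with log2 changes of 0.64 against P7 (SE 0.15, FDR 0.00357) and 1.00 against P14 (SE 0.15, FDR 6.53e-05). Tulp3, the adaptor that brings receptors such as Gpr161 to IFT-A, was at 37.9, 34.3 and 30.02 CPM at E15.5, 42.8, 50.2 and 41.7 CPM at P1, 39.3, 33.9 and 43.5 CPM at P7, 42.1, 39.3 and 38.1 CPM at P14, and 51.4, 73.4 and 80.9 CPM in MB. The tumours were above all precursors, with log2 changes of 0.82 against P7 (SE 0.18, FDR 0.00273) and 0.78 against P14 (SE 0.18, FDR 0.00239). MB replicate 1 was the lowest tumour for Tulp3, and alone against P7, the comparison among libraries counted alike, it gave 0.39 (FDR 0.136).

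In the BBSome group, Ttc8 was at 45.6, 50.9 and 58.6 CPM in MB, above all precursor libraries. Its log2 change was 0.58 against P7 (SE 0.18, FDR 0.0192) and 1.19 against P14 (SE 0.18, FDR 6.2e-05). Against P7 the call was lost without P7 replicate 1 or MB replicate 3 (FDR up to 0.188 over the alternatives). Bbs12 was at 10.5, 13.4 and 7.78 CPM at P7 and 24.4, 16.6 and 18.7 CPM in MB. It was 1.88-fold higher than at P7 (log2 change 0.91, SE 0.25, FDR 0.0102), a call lost without P7 replicate 3 at an FDR of 0.0505, and 2.55-fold higher than at P14 (log2 change 1.35, SE 0.25, FDR 0.000423). Bbs12 shares 32 exon bases with Cetn4 on the opposite strand. The P1 libraries, at 10.9 to 15.8 CPM, were nearest to the tumours. Bbs1, Bbs2, Bbs5 and Bbs9 were called in no comparison.

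Among the motors, Kif7 and Kif17 moved in opposite directions and Kif3a and Kif3b were called in neither comparison. Kif7, a kinesin at the cilium tip that organises the hedgehog transcription factors, was at 14.3, 8.52 and 8.30 CPM at E15.5, 15.9, 18.0 and 11.3 CPM at P1, 14.9, 8.91 and 11.7 CPM at P7, 11.8, 8.80 and 11.2 CPM at P14, and 19.3, 23.5 and 23.8 CPM in MB. Precursor ages overlapped, and all tumours were above all precursors. The log2 change was 0.90 against P7 (SE 0.27, FDR 0.0169) and 1.07 against P14 (SE 0.27, FDR 0.00428). The P7 call was lost without P7 replicate 2 and with MB replicate 1 as the lone tumour (0.69, FDR 0.132). Kif7 shares 394 exon bases with 9330171B17Rik and 36 with Ticrr on the opposite strand, and the strand setting of the counts is not given in the sources used here.

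Kif17 had 57, 48 and 48 reads at P7, 33, 37 and 41 at P14, and 16, 8 and 4 in MB. In CPM this was 1.67, 1.32 and 1.85 at P7, 1.11, 1.12 and 1.37 at P14, and 0.635, 0.195 and 0.160 in MB, where MB replicate 1 was over 3 times the other tumours. Kif17 was 4.96-fold lower than at P7 (log2 change -2.31, SE 0.45, FDR 0.000867) and 3.70-fold lower than at P14 (log2 change -1.89, SE 0.45, FDR 0.00258), and both calls held in all 14 alternatives. The size depended on MB replicate 1: against P7 the log2 change was -3.13 without it and -1.34 with it as the only tumour, and against P14 it was -2.70 without it. Kif17 shares 74 exon bases with Sh2d5 on the same strand. Kif3a was at 203, 248 and 176 CPM at E15.5, 177, 188 and 192 CPM at P1, 198, 218 and 211 CPM at P7, 181, 172 and 174 CPM at P14, and 231, 207 and 181 CPM in MB. Its log2 change was -0.02 (SE 0.15, FDR 0.949) against P7 and 0.23 (SE 0.15, FDR 0.219) against P14, and all of its group means lay between 176 and 209 CPM.

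Among the IFT-B genes, Ift57 was lower in MB than at P7. The tumours were at 42.1, 32.3 and 29.6 CPM, below all P7 libraries, 1.91-fold lower (log2 change -0.93, SE 0.19, FDR 0.00116), and the call held in all 14 alternatives. They overlapped the P14 libraries. Ift20, the IFT-B subunit that also sits at the Golgi, was at 27.6, 40.2 and 37.1 CPM at P14 and 24.8, 23.3 and 22.3 CPM in MB (log2 change -0.58, SE 0.21, FDR 0.0356), a call lost without P14 replicate 2 or 3 or MB replicate 2 or 3 (FDR up to 0.139). Ift20 has a transcript of 735 bases. Ift88 was at 27.9, 31.0 and 27.3 CPM at P7, 22.6, 22.6 and 22.8 CPM at P14, and 43.6, 31.1 and 26.9 CPM in MB. Its log2 change was 0.24 against P7 (SE 0.19, FDR 0.365) and 0.58 against P14 (SE 0.19, FDR 0.0186), and the latter was lost without MB replicate 1 or any 1 P14 library (FDR up to 0.0761).

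Arl13b, a GTPase of the ciliary membrane needed for hedgehog signalling, was at 22.9, 31.5 and 24.2 CPM at E15.5, 27.7, 24.5 and 24.3 CPM at P1, 26.8, 35.6 and 21.2 CPM at P7, 22.3, 19.6 and 21.0 CPM at P14, and 50.6, 35.0 and 31.3 CPM in MB. The tumours overlapped P7 (log2 change 0.48, SE 0.22, FDR 0.113) and lay above P14 (0.90, SE 0.23, FDR 0.00398). In the transition zone, Mks1 was at 9.67, 9.93 and 10.7 CPM at P7 and 26.3, 13.6 and 16.1 CPM in MB (log2 change 0.88, SE 0.24, FDR 0.00973), a call that was lost only in the fit of P7 and MB alone (FDR 0.0572). Against P14, Cep290 (1.07), Rpgrip1l (0.84), Tmem67 (0.78) and Mks1 (0.76) were the transition zone genes called higher, the last lost without MB replicate 1 or P14 replicate 1 (FDR up to 0.075). Cep290 shares 776 exon bases with 4930430F08Rik on the opposite strand, and Tctn1 shares 549 with Hvcn1. Ofd1, a basal body protein, was at 77.5, 33.5 and 36.6 CPM in MB and 23.6, 22 and 22.4 CPM at P14 (log2 change 1.12, SE 0.26, FDR 0.00256). The other members called higher than at P14 were Ift74 (0.94), Ift80 (0.72), Dync2h1 (0.72) and Rab23 (0.48). Of these, Ift80 was called in all 14 alternatives, Ift74 was lost without MB replicate 1 (FDR 0.0521), Dync2h1 without MB replicate 1 or P14 replicate 2 or 3 (FDR up to 0.169) and Rab23 without P14 replicate 2 (FDR up to 0.0736).

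Evc and Evc2 form a complex at a zone just above the transition zone, where it acts downstream of Smo. The genes lie head to head on chromosome 5 in mm9, Evc at 37690410 to 37728133 on the minus strand and Evc2 at 37729738 to 37816294 on the plus strand, with 1605 bases between their starts. Evc was at 26.5, 19.2 and 22.2 CPM at E15.5, 36.9, 39.9 and 26.9 CPM at P1, 43.9, 43.7 and 44.4 CPM at P7, 26.0 CPM in each P14 library, and 32.4, 81.6 and 63.4 CPM in MB. Evc2 was at 23.5, 18.9 and 17.4 CPM at E15.5, 21.2, 20.2 and 13.5 CPM at P1, 20.1, 15.48 and 16.9 CPM at P7, 10.5, 10.4 and 11 CPM at P14, and 15.8, 39.0 and 31.5 CPM in MB. Both genes were lower at P14 than in any P7 library without being called (FDR 0.0752 for Evc and 0.113 for Evc2). Both had the same order of tumours, with MB replicate 1 lowest. Against P14, Evc2 was 2.71-fold higher in MB (log2 change 1.44, SE 0.29, FDR 0.0007) and Evc 2.28-fold (1.19, SE 0.26, FDR 0.0016). Against P7 neither was called, with log2 changes of 0.43 for Evc (SE 0.26, FDR 0.226) and 0.72 for Evc2 (SE 0.28, FDR 0.0604). Without MB replicate 1 the P7 comparison called both (0.72, FDR 0.00751, and 1.01, FDR 0.0022).

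**Figure D4:**
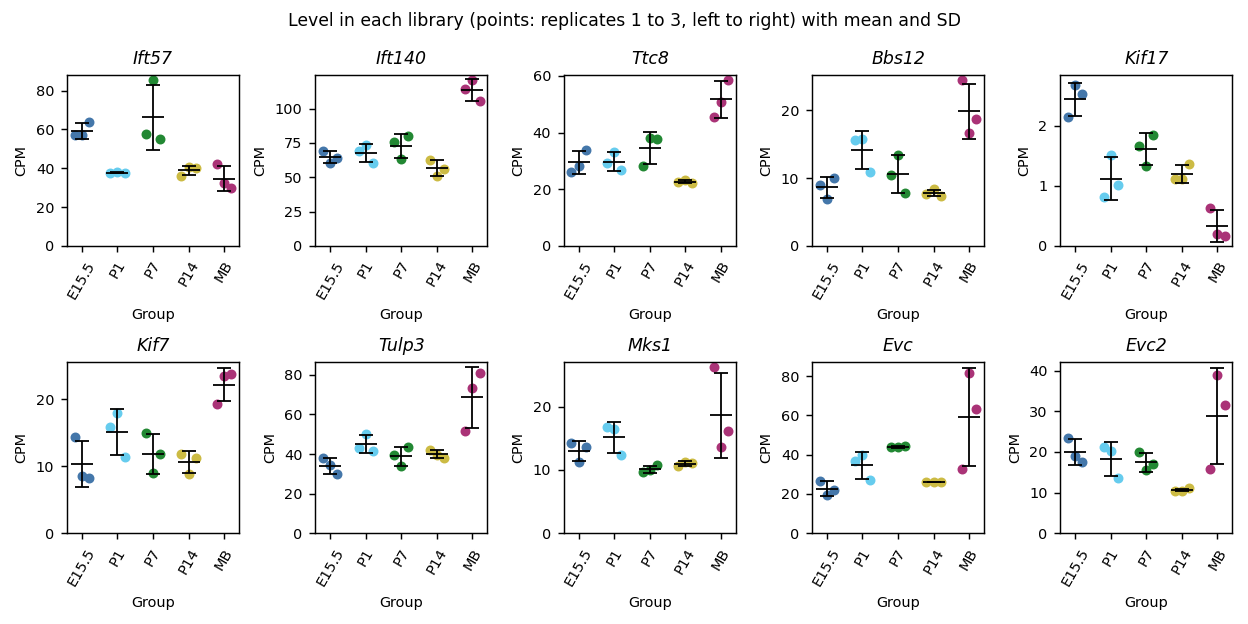
Level (CPM) of 10 members in each of 15 libraries, as points ordered by replicate, with the group mean and SD (n = 3). MB replicate 1 is the lowest tumour for Evc (32.4 CPM) and Evc2 (15.8 CPM) and the highest for Mks1 (26.3 CPM) and Bbs12 (24.4 CPM).

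The tumours differed from each other in some members. MB replicate 1 was over 1.5 times both other tumours in 8 of the 44 genes and under both by over 1.5 times in 4 (B9d1, B9d2, Evc and Evc2). The same counts were not made over all genes, so they cannot be read as a trait of the cilium genes. Bbs7, a BBSome subunit, was at 64.7 CPM in MB replicate 1 and at 16.9 and 20.7 CPM in the other tumours, against 26.8, 37.7 and 24.6 CPM at P7 and 14.6, 17.3 and 17.9 CPM at P14. It was called higher in MB than at P14 (log2 change 1.04, SE 0.39, FDR 0.0356) although the groups overlapped, and this was lost without MB replicate 1 (0.18, FDR 0.536) or any 1 P14 library. Against P7 the log2 change of Bbs7 was 0.20 (FDR 0.734), and without MB replicate 1 it was -0.66 (FDR 0.0367). MB replicate 1 is also the only tumour in the counting set of the P7 libraries, and had 367 CPM of 6 microglia and macrophage markers against 155 and 126 CPM in the others. Tumour and counting set cannot be told apart here. Without it, 8 members were called higher and 5 lower against P7 (15.6% and 22.1% of all genes), and 14 higher and 2 lower against P14 (22.5% and 27.9%).

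Between them, the comparisons called 32 of the 44 members at least once, against 75.9% of all genes. The 12 called in none were Ift81, Bbs1, Bbs2, Bbs5, Bbs9, Kif3a, Kif3b, Arl6, Tctn1, Tctn3, B9d1 and Cep164.

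A wider list of 50 other cilium genes was followed for context. Across the 4 ages, 28 of the 50 were called (56%, against 55.7% of all genes). At P14 these genes also lay lower than at P7, with 45 of 50 changes negative, a median of -0.34 and 5 called, all lower (10%, against 4.51% of all genes), led by Gpr161 (-1.13), a ciliary receptor that restrains the hedgehog pathway, Plk1 (-0.88), a mitotic kinase that promotes cilium disassembly, and Cep83 (-0.87), a distal appendage protein. In MB, 9 of the 50 were called higher (18%, near the 13.7% of all genes) and 4 lower (8%, against 20.7%) than at P7. Against P14, 24 were higher (48%, against 22.9%) and 3 lower (6%, against 27.2%). The most raised against P7 were Tmem107 (1.02), Sclt1 (0.86) and Cc2d2a (0.84), which act in the transition zone or at the distal appendages, and the most lowered were Rfx4 (-2.46), an RFX factor, Sstr3 (-2.08), a somatostatin receptor of neuronal cilia, and Gpr161 (-0.67). Smo was called higher in MB against P7 (0.56, FDR 0.0489) and P14 (1.07, FDR 0.000618).

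From E15.5 to P1, Ptch1, itself a hedgehog target, rose most among the wider list (log2 change 1.54), followed by Nek2 (1.07), a centrosome kinase, and Kif24 (1.01). Sstr3 fell by 1.80 on the log2 scale. Its level was 26.4, 24.1 and 15.52 CPM at E15.5, 7.94, 6.78 and 4.26 CPM at P1, 2.28, 2.10 and 2.31 CPM at P7, 2.70, 3.22 and 3.44 CPM at P14, and 0.635, 0.464 and 0.480 CPM in MB. Sstr3 thus differed between E15.5 and all later groups with no overlap, and the tumours were below every precursor library.

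Cells with many motile cilia share transport genes with the primary cilium. The 12 markers of multiciliated ependymal cells summed to 25.4 to 30.2 CPM at E15.5, 68.8 to 133 CPM at P1, 39.9 to 50.7 CPM at P7, 67.4 to 88.0 CPM at P14 and 8.05 to 9.92 CPM in MB, and all 11 that were tested were called lower in MB than at P7 and at P14. From E15.5 to P1, 9 of the 11 were called higher (median log2 change 2.38). The part of these cells in the levels of the primary cilium genes was not tested.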

How the data were processed

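Poly(A) RNA-seq of 15 libraries was used. The authors deposited raw read counts per Ensembl gene and per transcript for each library. The submitters' processing notes name Trimmomatic, TopHat, StringTie and HTSeq and the build mm9, and their versions and the strand setting are not given in the sources used here. The 5 summary lines, which name no gene, were left out, and 39.5% to 55.4% of records were counted in genes. Symbols matched 20358 of 21889 genes. Counts were tested with edgeR 4.0.16 in R 4.3.3: filterByExpr (minimum count 10, minimum total 15) kept 15259 genes, scaling was by TMM, and the quasi-likelihood F-test used all 15 libraries, with a mean for each group (10 residual degrees of freedom). FDR values are Benjamini-Hochberg adjusted over all genes tested. CPM are counts scaled by TMM library size. Depth limits precision most for Kif17, with 4 to 96 reads in a library.

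The 46 genes, the other lists and the tests were chosen with earlier results of these data known. Named in full were up to 3 called members with the largest change in each direction per comparison, with a mean of at least 1 CPM, and Ift88, Kif3a, Kif7, Arl13b, Tulp3, Evc and Evc2. Ift57, Ift140, Ofd1, Ttc8 and Bbs7 were followed further after their values were seen. Alternatives were DESeq2 1.42.0, no TMM, no filter, fits of the compared groups alone, a replicate block, the transcript counts, libraries counted alike, a correction for length, and leaving out each library. The script was tested on simulated data. Counts over start site models were not used here.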

Additional observations from a re-analysis of the deposited data

How the results depend on the processing

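Among the members and alternatives run, only Bbs7 in MB against P7 without MB replicate 1 passed the test in the opposite direction, at -0.66 against 0.20 with all libraries and up to 0.52 without 1 of the other tumours. Leaving out 1 library in turn gave 10 to 18 members for the 4 ages (18 with all libraries). It gave 3 to 8 higher and 6 to 7 lower for P1 against E15.5 (7 and 8), 0 to 1 higher and 0 to 1 lower for P7 against P1 (2 and 0), 0 to 2 lower for P14 against P7 (2), and 0 to 6 lower for P14 against P1 (2). It gave 5 to 8 higher and 2 to 5 lower for MB against P7 (7 and 2), and 14 to 21 higher and 1 to 2 lower for MB against P14 (19 and 2). Of all genes, these fits called 46.9% to 55% over the 4 ages. For P1 against E15.5 they called 20.8% to 23.8% higher and 15.4% to 20.7% lower. For P7 against P1 it was 0.00646% to 3.12% and 0.0517% to 2.61%. The shares lower were 0.233% to 3.68% for P14 against P7 and 0.939% to 7.96% for P14 against P1. For MB they were 10.9% to 15.6% higher and 17.5% to 22.1% lower against P7, and 17.8% to 22.5% and 24% to 27.9% against P14. Where a group was left with 2 libraries or 1, the spread came from all groups.

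In this paragraph and the next, percentages in brackets are shares of all genes called in the same direction. Without TMM, P1 against E15.5 gave 13 higher (32.2%) and 4 lower (13.7%). The median of all genes then moved to 0.26 and that of the members to 0.27. P7 against P1 without TMM gave 0 higher (0.727%) and 1 lower (3.11%), with a median of all genes of -0.14. P14 against P7 gave 1 lower (3.49%) and P14 against P1 gave 4 lower (6.63%). Without the filter, P7 against P1 gave 1 higher (0.962%), P14 against P7 gave 1 lower (3.3%) and P14 against P1 gave 1 lower (3.79%). DESeq2 gave 2 lower for P7 against P1 (4.64%) and 7 lower for P14 against P1 (7.96%). Fits of the compared groups alone gave 0 higher for P7 against P1 (0.691%) and 9 lower for P14 against P7 (10.7%). They gave 12 lower for P14 against P1 (14.6%) and 4 higher for MB against P7 (9.27%). The transcript counts gave 1 higher for P7 against P1 (1.22%). Inside 1 counting set, P14 against P1 gave 8 lower (9.17%). P1 against E15.5 and MB against P7 had 1 library in a group there. Their median changes were 0.11 and 0.39 for the members, and 0.08 and -0.08 over all genes. The fit inside 1 counting set could not be run for the 4 ages, P7 against P1 and P14 against P7, since no set holds enough of those groups. The correction for length, chosen after seeing the data, covered 95.0% of tested genes. It gave 5 lower for P14 against P1 (7.47%), 12 higher for MB against P7 (20.1%) and 1 lower for MB against P14 (27%).

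Same-numbered replicates had correlations of their deviations from -0.24 to 0.33, so the numbers were not taken to pair the samples. With the replicate block, 13 members were called over the 4 ages (52.5% of all genes in any direction) and 0 higher for P7 against P1 (0.701%). It gave 1 lower for P14 against P7 (3.43%), 1 lower for P14 against P1 (4.59%) and 1 lower for MB against P14 (26.8%). The other counts with the block stayed within 1.5 times.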
